A study of Mus musculus with 4 samples.

Results

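Mural nuclei, those of pericytes and other cells that wrap brain vessels, were chosen by a rule on marker UMIs, and 148 of the 52132 nuclei kept from 4 single-nucleus RNA libraries met it. A UMI (unique molecular identifier) stands for 1 captured transcript. The rule asked for at least 3 UMIs, 0.1% of a nucleus' UMIs and 2 genes detected among *Vtn*, *Rgs5*, *Pdgfrb*, *Abcc9* and *Atp13a5*, with a sum above that of the endothelial genes *Flt1*, *Cldn5*, *Adgrl4* and *Abcb1a*. The libraries came from brains of untreated 2-month-old female mice on a C57/BL6 background, 2 wild-type (WT) and 2 Csf1r+/- (HET) mice of the study's 3 per genotype. HET mice carry 1 intact and 1 disrupted allele of *Csf1r*, the receptor for CSF-1 and IL-34, in every cell and from the germline, and nothing in the design restricts the loss to microglia. The first and second WT libraries gave 63 and 32 mural nuclei of 16114 and 15247, and the first and second HET libraries 21 and 32 of 9589 and 11182. Where 4 values are given by library, they follow this order (WT1, WT2, HET1, HET2).

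Pericytes sit on the outer face of capillaries inside a basement membrane that they share with the endothelium, and are held there by endothelial PDGF-BB acting on their receptor PDGFRβ. They take part in forming the blood-brain barrier and in setting capillary tone, for which they use ATP-sensitive potassium channels, calcium stores and cyclic GMP. Smooth muscle cells, the mural cells of arterioles, differ in carrying the contractile proteins of muscle, and fibroblasts lie around larger vessels and in the meninges.

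By library, the mural nuclei held 250216, 120073, 94173 and 114164 UMIs, so each library's profile rests on few nuclei. Their median depth was 2881, 3223.5, 3782 and 3533.5 UMIs per nucleus. A single HET replicate 1 nucleus with 23032 UMIs supplied 24.5% of that library's mural UMIs, while the deepest nucleus supplied 8.71%, 7.84% and 7.73% in the other 3. All 5 rule genes were detected in 91 of the 148 nuclei, 4 in 31, 3 in 17 and 2 in 9. Thinned to 500 UMIs each, the nuclei had a median of 405, 398, 405 and 400 genes by library, against 1625, 1851.5, 2098 and 1990.5 genes without thinning. The median nucleus carried 27 UMIs of the rule genes (range 3 to 88), or 0.997% of its UMIs.

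Because these 5 genes chose the nuclei, their levels describe the selection, and no test of them is given. *Vtn*, which encodes the matrix glycoprotein vitronectin, had a UMI in 144 of 148 nuclei, and *Rgs5*, a brake on G protein signalling, in 137. *Atp13a5*, a P5-type transport ATPase, was found in 132, *Pdgfrb* in 126 and *Abcc9*, the sulfonylurea receptor of vascular potassium channels, in 109. Levels are UMIs per 1000000 UMIs of the summed nuclei (CPM), without scaling to transcript length, since the tags come from the 3′ end. *Vtn* stood at 2558, 2715, 4099 and 2996 CPM by library and *Atp13a5* at 1095, 1274, 1561 and 1997 CPM. *Rgs5* stood at 2330, 2024, 2973 and 2409 CPM and *Pdgfrb* at 524, 658, 531 and 718 CPM. *Rgs5* alone among the 5 was also abundant in the 531 endothelial nuclei picked by the mirrored rule, at 1232 CPM against 2387 CPM in mural nuclei.

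**Figure D1:**
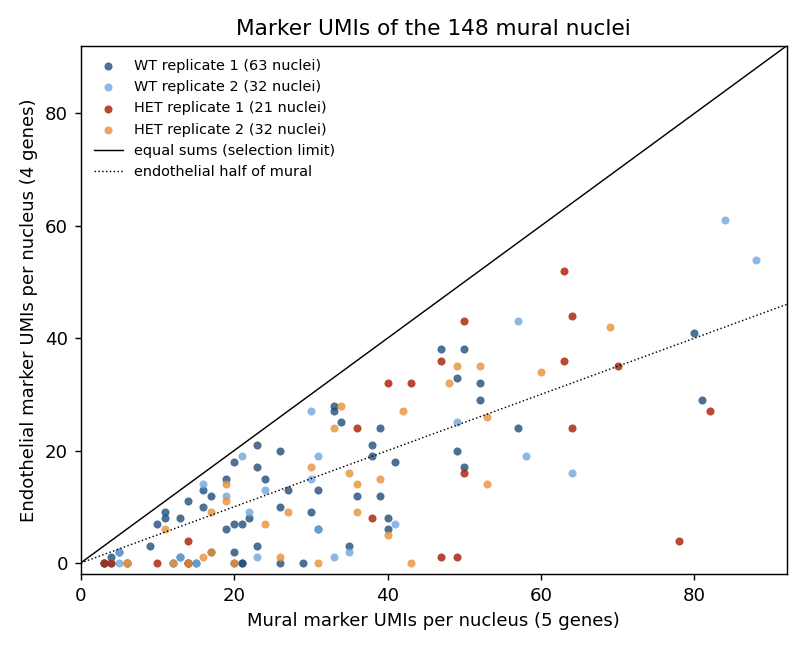
UMIs of the 5 mural rule genes (x axis) and of the 4 endothelial rule genes (y axis) in each of the 148 mural nuclei, 1 point per nucleus, coloured by library. The solid line marks equal sums, below which every member lies by the rule, and the 59 nuclei on or above the dotted line carried at least 0.5 times as many endothelial as mural UMIs.

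At the edges of the rule, 4 members had exactly 3 mural UMIs and 4 nuclei with 2 UMIs otherwise met it. Outside were also 15 nuclei with a single gene detected, 10 under 0.1% of UMIs, 2 tied with the endothelial sum and 79 with more endothelial than mural UMIs. The lowest member stood at 0.114% of its UMIs.

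The genes that carry the selection are spread over the genome, except for a pair of neighbours. In the mouse build GRCm38.p6 (mm10), *Rgs5* lies at chr1:169655501-169695813, *Vtn* at chr11:78499120-78502325 and *Atp13a5* at chr16:29230490-29378766. *Kcnj8*, the pore subunit (Kir6.1) of the same potassium channel as *Abcc9*, lies at chr6:142564837-142571614, and *Abcc9* at chr6:142587862-142702766, with 16247 bases and no annotated gene between them. *Kcnj8*, which the rule did not use, was found in 46.6% of mural nuclei at 240, 150, 265 and 228 CPM by library, against 18.7 CPM in endothelial nuclei. The 250 bases before the transcript start that RefSeq's promoter windows use for *Vtn* and for these neighbours are shown for the most widely detected rule gene and for the channel pair. For *Abcc9* that start lies inside the gene span given above, and so does the window, whereas the other windows end next to their spans. Capitals mark the letters TGGGAA on either strand, the core bound by RBPJ, the DNA-binding partner of Notch receptors. The windows are chr11:78498870-78499119 (plus strand), chr6:142571615-142571864 (minus) and chr6:142702275-142702524 (minus).
Vtn: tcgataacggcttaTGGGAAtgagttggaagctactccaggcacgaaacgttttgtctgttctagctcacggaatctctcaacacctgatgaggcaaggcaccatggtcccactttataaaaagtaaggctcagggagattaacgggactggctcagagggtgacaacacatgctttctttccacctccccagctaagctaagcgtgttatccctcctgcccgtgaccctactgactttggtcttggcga
Kcnj8: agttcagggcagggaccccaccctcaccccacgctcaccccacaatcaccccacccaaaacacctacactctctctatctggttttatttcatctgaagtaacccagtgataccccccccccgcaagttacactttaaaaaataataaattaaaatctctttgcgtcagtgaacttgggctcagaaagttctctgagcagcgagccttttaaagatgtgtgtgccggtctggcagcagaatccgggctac
Abcc9: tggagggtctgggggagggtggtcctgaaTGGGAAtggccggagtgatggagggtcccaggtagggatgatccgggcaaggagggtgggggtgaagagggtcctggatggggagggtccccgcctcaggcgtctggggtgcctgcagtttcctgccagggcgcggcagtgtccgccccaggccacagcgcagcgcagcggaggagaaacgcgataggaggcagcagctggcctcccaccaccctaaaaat

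Of the 5 rule genes and the 25 leading genes named further on, 19 had a promoter window in RefSeq's table, and 5 of the 19 (26.3%) held TGGGAA (*Vtn*, *Abcc9*, *Gper1*, *Ifitm1* and *Tbxa2r*), against 21.5% of all 27025 windows of that length. On either strand, TGTTTAC, a forkhead motif, occurred in 1 of the 19 (*Gper1*) and in 3.09% of all, and AGGTGTGA, a T-box motif, in 0 and 1.14%. These are matches of letters in a short window, and the motifs were picked with the expression of these factor families known.

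Genes outside the rule placed the selected nuclei with pericytes. All 12 further pericyte markers had UMIs there, and summed to 2538, 2573, 3483 and 3469 CPM by library, against 414 CPM in endothelial nuclei. *Slc6a20a*, a proline transporter, was the most abundant of them with 309 UMIs, followed by *Notch3*, the mural Notch receptor, with 193 UMIs. *Ndufa4l2* and *Higd1b*, which encode small mitochondrial proteins, stood at 277 and 233 CPM, against 0.250 and 0.226 CPM in all nuclei outside the selection (51984 nuclei, endothelial included). *Cspg4*, the NG2 proteoglycan, was found in 39.2% of mural and 3.01% of endothelial nuclei, and *Anpep*, the aminopeptidase CD13, in 10.1% of mural nuclei with 8, 0, 3 and 6 UMIs by library. Of the 12, *P2ry14* and *Trpc4* also stood high outside vessels, at 114 and 84.1 CPM.

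Mural cells other than pericytes left few traces. Of 12 smooth muscle markers, the defining contractile genes *Acta2*, *Tagln* and *Cnn1* had 5, 1 and 0 UMIs in all 148 nuclei, *Pln* had 0 and *Lmod1* had 3. *Myh11*, the smooth muscle myosin heavy chain, had 5, 1, 6 and 6 UMIs by library, in 15 nuclei. At least 2 of 6 smooth muscle genes were detected in 1, 2, 3 and 5 nuclei by library (1.59%, 6.25%, 14.3% and 15.6%). Depth enters these counts, and its median was higher in HET members (3568 against 3129 UMIs). At least 2 of all 12 genes were found in 33.3%, 34.4%, 52.4% and 50.0% of nuclei by library. With nuclei thinned to 500 UMIs these were 1.59%, 0%, 9.52% and 0%, so no genotype difference is read from them. The summed list (348, 475, 531 and 596 CPM by library) was led by *Myl9* with 99 UMIs, a myosin light chain that pericytes also express. Of 12 fibroblast markers, *Lum*, *Col1a1*, *Slc47a1*, *Bnc2* and *Pdgfra* had 0 UMIs and *Dcn* had 5, and 114 of the list's UMIs came from *Cped1*. A count of 0 among 578626 UMIs allows up to 3 UMIs over the 4 libraries. At this depth the markers of the selection are those of pericytes, with few smooth muscle or fibroblast transcripts.

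**Figure D2:**
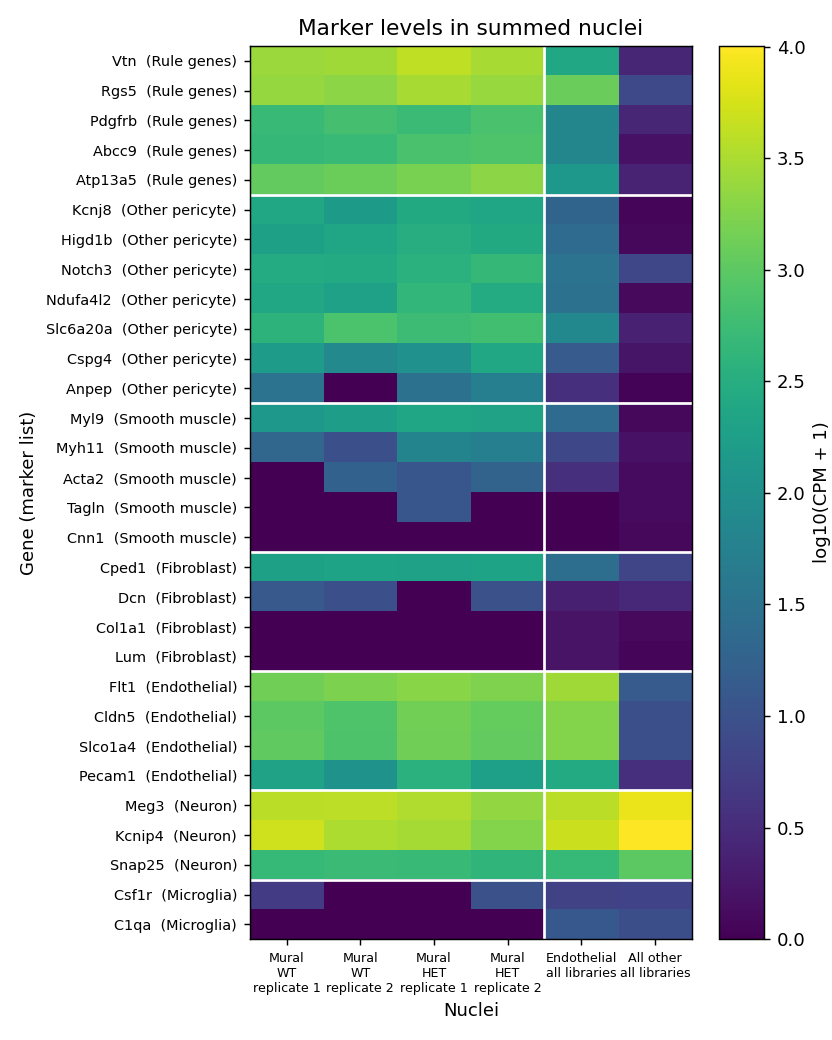
Levels of marker genes as log10(CPM + 1) in the mural nuclei of each library (left 4 columns), in the endothelial nuclei and in all other nuclei of the 4 libraries together. Pericyte genes stand high in all 4 mural columns, the smooth muscle and fibroblast genes *Cnn1*, *Col1a1* and *Lum* stand at 0, and endothelial genes such as *Flt1* reach 1580 CPM in mural nuclei against 2748 CPM in endothelial nuclei.

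Endothelial transcripts accompanied most members. At least 1 UMI of the 4 endothelial rule genes was found in 115 of 148 nuclei (77.7%), and 12 other endothelial genes summed to 5385 CPM, against 8954 CPM in the endothelial nuclei and 68.7 CPM in all other nuclei. The 12 include *Slco1a4*, a drug transporter of the blood-brain barrier and the most abundant with 618 UMIs, *Pecam1* (204 against 279 CPM in endothelial nuclei) and *Cdh5* (91.6 against 189 CPM). None of the 12 was at 0. By the endothelial rule genes, 33 members had no endothelial UMI, 56 had under 0.5 times their mural UMIs and 59 had at least that. The summed level of the 12 pericyte markers was alike across the 3 sets, at 2704, 2785 and 3026 CPM, while the 12 endothelial genes summed to 222, 3403 and 8715 CPM. Median depth was 1131, 3181 and 4010 UMIs. High Scrublet scores, which mark nuclei that resemble simulated doublets, were given to 6.06%, 19.6% and 20.3% of the nuclei. The cutoff marks a number of nuclei set in advance by library size. Among all nuclei it marked 2135 of 16114, 1942 of 15247, 764 of 9589 and 1001 of 11182 by library. The part of doublets in the endothelial content was not tested.

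Several genes known from the endothelium were found in members mainly together with endothelial UMIs. The PDGF ligands *Pdgfb* and *Pdgfd* had 90 and 84 UMIs in mural nuclei (156 and 145 CPM) but 0 in the 33 nuclei without endothelial UMIs, whose 72124 UMIs allow up to 3. In the same 33 nuclei the glucose transporter *Slc2a1* stood at 27.7 CPM against 546 CPM in all members. Several pericyte genes were as abundant there as in all members: *Atp13a5* stood at 1636 CPM in the 33 nuclei and 1386 CPM in all 148, *Kcnj8* at 222 and 223 CPM, and *Slc6a20a* at 666 and 534 CPM. *Rgs5* was lower, at 943 against 2387 CPM, as was *Higd1b* (83.2 against 233 CPM). Summed over these 33 nuclei, 10 neuronal genes stood at 22933 CPM, against 17874 CPM in the 56 nuclei between and 7414 CPM in the 59 nuclei richest in endothelial UMIs. Few of the 33 carried much of that sum. A single WT replicate 1 nucleus with 18493 of the 72124 UMIs held 683 neuronal UMIs, and WT replicate 2 nuclei held 255 and 188. The sum therefore does not describe each of the 33.

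Neuronal transcripts, which free RNA in the suspension can add to any droplet, made up 1.68%, 1.39%, 1.18% and 0.893% of mural UMIs by library (10 genes, led by *Kcnip4* with 2172 UMIs). In all nuclei of the same libraries the share was 3.3%, 3.0%, 3.27% and 3.33%. Among members the neuronal RNA was uneven: the median nucleus stood at 0.548%, 0.725%, 0.239% and 0.311% by library. In HET replicate 1, nuclei of 23032 and 13475 UMIs held 638 and 364 of the 1113 neuronal UMIs. All 10 genes were detected in mural nuclei of every library, and 33 members had more UMIs of 6 neuronal genes than of the mural genes. Summed markers of other brain cells came to 233 CPM for 8 oligodendrocyte genes (led by *Prr5l*), 1027 CPM for 6 genes of oligodendrocyte precursors (led by *Pcdh15*, which neurons also express), 453 CPM for 8 astrocyte genes (led by *Slc1a2*), 96.8 CPM for 9 microglial genes (with *C1qa* at 0 UMIs) and 10.4 CPM for 6 ependymal and choroid plexus genes (5 of them at 0). In all other nuclei the same lists stood at 424, 2189 and 763 CPM for the oligodendrocyte, precursor and astrocyte genes. *Csf1r* itself had 1, 0, 0 and 1 UMIs in the mural nuclei, and in all other nuclei its level was 3.04, 6.54, 6.69 and 6.36 CPM. These counts are taken at the 3′ end of transcripts and the labels do not say which part of the allele is altered, so they do not check the genotype.

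Mitochondrial RNA set the vessel nuclei apart from the rest. The median mitochondrial share of members was 2.48%, 2.62%, 3.52% and 2.43% by library, against 0.172%, 0.656%, 0.268% and 0.144% in all nuclei. The study's limit of 5% removed mural nuclei unevenly: 8 of 71 in WT replicate 1 (11.3%), 22 of 54 in WT replicate 2 (40.7%), 11 of 32 in HET replicate 1 (34.4%) and 4 of 36 in HET replicate 2 (11.1%). Among all nuclei the limit removed 1.79%, 6.45%, 3.04% and 1.59%.

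Against all other nuclei, 854 of 5618 genes with at least 20 mural UMIs (15.2%) were at least 4-fold higher in mural nuclei in every library, a description that the choice of nuclei fixes in part. Beyond the rule genes the steepest was *Kcnj8*, 1584-fold higher over the libraries together and at least 733-fold in each. *Cysltr2*, a leukotriene receptor, followed at 1199-fold, *Ndufa4l2* at 1107-fold and *Higd1b* at 1033-fold. Of the 25 leading genes, 20 lay between 295-fold and 872-fold. These included receptors and signalling genes (*Gper1*, *Tbxa2r*, *Rem1*, *Ifitm1*), matrix and surface proteins (*Cd248*, *Bgn*, *Mgp*, *Sod3*, *Tmem45a*), the Notch target *Heyl*, the transcription factors *Tbx2* and *Foxd1*, transporters (*Slc6a20a*, *Slc38a11*), the connexin *Gja4*, the light chain *Myl9*, the respiratory subunit *Cox4i2* and the noncoding RNAs *Carmn*, *Tbx3os1* and *Gm36823*.

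Against endothelial nuclei only 49 of the 5618 genes (0.872%) were at least 4-fold higher in every library, with endothelial counts under 3 UMIs in a library set to 3 UMIs. The 10 genes with the highest ratio of levels summed over the libraries, without that floor, were taken from those at least 2-fold higher in every library. They were *Gprc5c* (22.2-fold), *C1qtnf7* (16.1-fold), *Pcdh18* and *Emp3* (14-fold each), *Dcdc2a* (13.7-fold), *Kcnj8* (11.9-fold), *Tmem45a* (11.9-fold), *Tbx18* (11.9-fold), *Cspg4* (11.8-fold) and *Rarres2* (11.7-fold). Of these, *Emp3*, *Tmem45a* and *Tbx18* were not among the 49, with a lowest library ratio of 2.03, 3.98 and 3.98 under that floor. For *Tmem45a* the floor set this ratio, since in WT2 it stood at 33.3 CPM in mural and 2.79 CPM in endothelial nuclei. The ratios rest on few endothelial UMIs, as for *Gprc5c* at 57.0 CPM in mural and 2.57 CPM in endothelial nuclei, where both HET libraries were at 0, and its ratio in single libraries with the floor ran from 4.07 to 10.7. *Tbx18*, a T-box factor that marks mural cells, had 10, 4, 5 and 12 UMIs by library.

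*Pdgfrb*, the receptor that keeps pericytes on capillaries, stood at 591 CPM in mural and 68.2 CPM in endothelial nuclei, and its ligand gene *Pdgfb* at 156 and 234 CPM. In the Notch pathway *Notch3* was the receptor most restricted to mural nuclei (292, 275, 361 and 464 CPM by library, against 32.8 CPM in endothelial nuclei), and *Notch1* stood at 147 and 113 CPM. The Notch targets *Heyl* and *Hey2* stood at 50.1 and 39.7 CPM against 5.15 and 4.51 CPM in endothelial nuclei, whereas *Hey1* was lower (6.91 against 23.2 CPM). The ligand *Jag1* stood at 50.1 and 30.9 CPM and *Dll4*, the ligand of arterial endothelium, at 12.1 and 24.5 CPM. Of the TGF-β family, *Bmp5* favoured mural nuclei (69.1 against 8.37 CPM), while the endothelial receptors *Eng* and *Acvrl1* were below their endothelial levels (168 against 292 CPM, and 119 against 176 CPM). *Angpt1*, the pericyte ligand of TIE2, had only 8 UMIs.

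Among matrix genes, *Lama2*, the laminin α2 chain, stood at 428, 333, 308 and 491 CPM in mural nuclei by library and 51.5 CPM in endothelial nuclei. *Nid1* (nidogen) stood at 154 against 37.3 CPM, *Lamc1* at 235 against 83.7 CPM, *Lamc3* at 93.3 against 14.2 CPM and *Col4a3* at 69.1 against 9.01 CPM. The major collagen IV genes *Col4a1* and *Col4a2* were nearly level (251 against 212 CPM, and 171 against 145 CPM), and *Fn1* (fibronectin) was lower in mural nuclei (200.5 against 357 CPM). Of the receptors for this matrix, *Itga1* stood at 493 against 282 CPM, and *Itga6* at 168 against 319 CPM.

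Several genes for vessel tone stood higher in mural than in endothelial nuclei. As a list, the channel and calcium genes summed to 5625 CPM in mural nuclei, below the 6606 CPM of all other nuclei. Besides *Kcnj8* and *Abcc9*, *Ano1*, a calcium-activated chloride channel, stood at 195 CPM against 26.4 CPM in endothelial nuclei. For the relaxing side, the soluble guanylate cyclase subunits *Gucy1a1* and *Gucy1b1*, which sense nitric oxide, stood at 142 and 320 CPM against 26.4 and 74.0 CPM. *Prkg1*, the cyclic GMP-dependent kinase, stood at 1579, 1557, 1678 and 2111 CPM by library against 848 CPM in endothelial nuclei, and the phosphodiesterases *Pde3a*, *Pde5a* and *Pde8b* at 152, 147 and 983 CPM against 18.0, 46.3 and 180 CPM. *Ednra*, the endothelin receptor of mural cells, stood at 119 against 10.9 CPM and *S1pr3* at 89.9 against 14.8 CPM, while the angiotensin receptor gene *Agtr1a* had 0 UMIs. Several neuronal channel genes, such as *Kcnma1* and *Ryr2*, were lower than in all other nuclei (869 against 1739 CPM, and 444 against 955 CPM).

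Among transporters and transcription factors, *Slc30a10*, a manganese exporter, stood at 119 CPM against 10.3 CPM in endothelial nuclei, and *Slc19a1*, the reduced folate carrier, at 128 against 18.0 CPM. The transcription factor *Ebf1* stood at 1119, 1141, 1518 and 2102 CPM by library against 853 CPM, *Zic1* at 149 against 23.2 CPM, *Nr2f2* at 197 against 50.2 CPM and *Foxd1* at 81.2 against 8.37 CPM. *Foxc1* and *Foxf2* were at about their endothelial level (79.5 against 85.6 CPM, and 51.8 against 61.1 CPM). The smooth muscle coactivator *Myocd* had 2 UMIs.

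The ligand side of CSF-1R signalling was visible in these nuclei. *Il34*, which encodes the second ligand of the receptor and is otherwise best known from neurons, stood at 140, 200, 159 and 166 CPM by library. All 4 values lay above the 22.5 CPM of endothelial and the 18.3 CPM of all other nuclei, and the WT and HET values overlapped. It had a UMI in 65 of 148 nuclei, and 236 CPM in the 33 nuclei without endothelial UMIs. *Csf1* had 6, 0, 0 and 3 UMIs. Of the 23 metal-handling genes, *Fth1* (ferritin heavy chain) led with 440 UMIs, and ceruloplasmin *Cp* stood at 166 CPM against 83.7 in endothelial and 4.90 in all other nuclei. The metallothioneins *Mt1*, *Mt2* and *Mt3*, which bind zinc and copper, stood at 138, 39.7 and 51.8 CPM, against 246, 49.6 and 54.1 CPM in endothelial nuclei.

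The share of mural nuclei asks whether the loss of a *Csf1r* allele goes with a change in their number. It was 0.391% (95% Wilson interval 0.306 to 0.500%) in WT1 and 0.210% (0.149 to 0.296%) in WT2. In HET1 it was 0.219% (0.143 to 0.335%) and in HET2 0.286% (0.203 to 0.404%). The WT libraries lay on either side of both HET libraries. The means were 0.300 ± 0.128% in WT and 0.253 ± 0.0475% in HET (SD, n = 2), with a two-sided exact permutation p of 1, where 2 libraries against 2 cannot give a p below 0.333. Per 100 endothelial nuclei there were 23.8 and 33.0 mural nuclei in WT and 26.6 and 35.6 in HET (28.4 ± 6.52 and 31.1 ± 6.35, exact permutation p = 0.667, n = 2). Without the mitochondrial limit the shares were 0.433% and 0.331% in WT and 0.324% and 0.317% in HET, which no longer overlap, at the smallest p possible (exact permutation p = 0.333, n = 2). Intervals cover counting error only, and a nucleus can be lost in preparation in ways that the counts do not show.

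**Figure D3:**
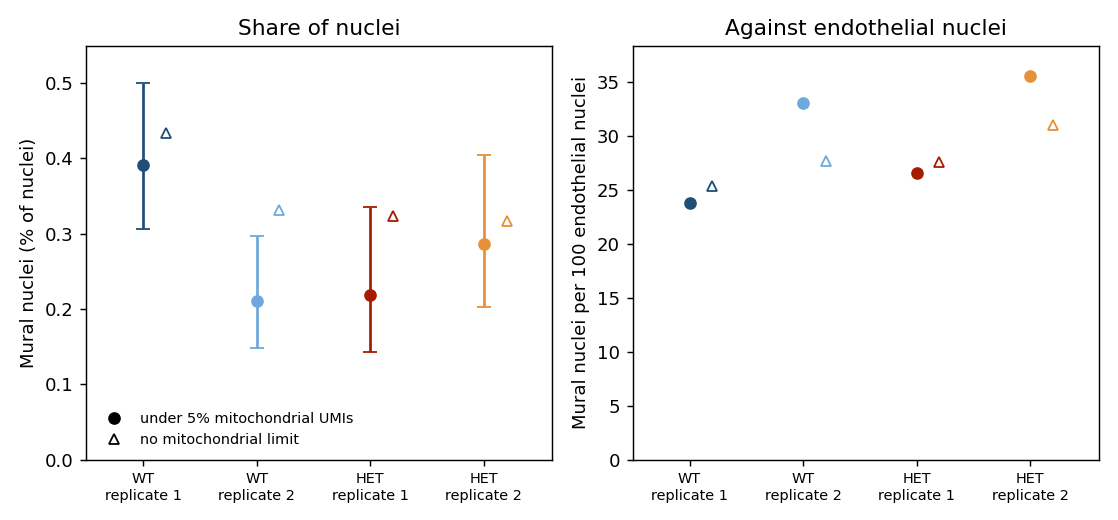
Mural nuclei as a percentage of nuclei kept (left, filled points with 95% Wilson intervals) and per 100 endothelial nuclei (right) in each library, with open triangles for the values without the mitochondrial limit. The 2 WT shares, 0.391% and 0.210%, lie on either side of both HET shares, and among the shares those of WT replicate 2 and HET replicate 1 move most when the limit is dropped.

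To ask which transcripts differed by genotype, mural UMIs were summed per library and compared with edgeR's quasi-likelihood test. In bulk sums of this kind, fewer transcripts per nucleus and fewer nuclei of a kind within the sum cannot be told apart. Of 7019 genes tested, 0 (0.0%) had an adjusted p under 0.05, 422 had an unadjusted p under 0.05 and 72 (1.03%) passed the study's threshold of an unadjusted p under 0.01. The study applied that threshold to edgeR's likelihood-ratio test, which gave 155 genes here (39 higher and 116 lower in HET). For 9 of the lower ones the adjusted p of that test was below 0.05. Of the 72, 13 (0.185% of genes tested) were higher and 59 (0.841%) lower in HET. A threshold of 0.01 passes about this share when no gene differs, so the 72 from the quasi-likelihood test are given as values and not as a set of changed genes. The same test was run on simulated counts at these library depths, with 200 of 7019 genes changed. With changes of 1.5 on the log2 scale, 51% of the changed genes had an adjusted p under 0.05 and 70.5% an unadjusted p under 0.01. With changes of 1 these were 4.5% and 34.5%, and with changes of 2.5 they were 87.5% and 97%. The changed genes all had more UMIs than the median gene tested (35), and 1 dispersion (0.0364) served for all genes. These shares therefore do not hold for genes with fewer UMIs. The simulation held the depth and the 2 libraries per genotype fixed, so their parts in this limit cannot be told apart.

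Most genes lower in HET were ones that stood higher outside the mural nuclei. Of the 59, 55 were higher in all other nuclei than in mural nuclei (93.2%, against 35.0% of all genes tested), and of the 13 higher in HET 1 did. *Cntn4*, a neuronal adhesion molecule, had the smallest p, with 250 and 87 UMIs in WT and 21 and 25 in HET, a log2 fold change of -2.04 (SE 0.33, with an adjusted p of 0.693 by edgeR). Those UMIs came from 33 and 20 WT nuclei and from 5 and 11 HET nuclei, and a single WT replicate 1 nucleus held 51 of them. *Chrm3*, a muscarinic receptor, had 138 and 54 UMIs against 14 and 21 (log2 fold change -1.65), and *Ntm*, neurotrimin, 300 and 140 against 51 and 63 (-1.17). Where neuronal UMIs did not exceed mural UMIs, *Chrm3* stood at -0.81 and *Ntm* at -0.66 and neither passed the threshold, while *Cntn4* passed it at -2.41. *Zer1* had 18 and 5 UMIs in WT and 0 in both HET libraries. The other 8 named lower genes (*Foxp2*, *Elavl2*, *Sorcs3*, *Dscaml1*, *Pcdh11x*, *Jakmip1*, *Rnf214* and *Tspan7*) had log2 fold changes from -3.45 to -1.67, and each stood higher in all other nuclei than in mural nuclei. Under the same limit on neuronal UMIs, *Sorcs3* stood at -0.91 and *Elavl2* at -2.94 and neither passed the threshold, while *Foxp2* passed it at -5.78. The share of neuronal UMIs in mural nuclei was also lower in both HET libraries, as given above, and its part in these differences was not tested.

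Of the 13 genes higher in HET, 12 stood higher in mural than in all other nuclei. *Cox4i2*, a lung and vessel isoform of a cytochrome oxidase subunit and one of the leading mural genes, stood at 44.0, 50.0, 191 and 123 CPM by library, a log2 fold change of 1.66 (SE 0.44, with an adjusted p of 0.797 by edgeR). *Ifitm1*, an interferon-induced membrane protein and also a leading gene, had 12 and 11 UMIs in WT and 15 and 21 in HET (1.35, SE 0.41, and 0.86 without WT1). The interferon-inducible *Ifi27* had 18 and 7 against 20 and 20 UMIs (1.45), the peptidoglycan recognition protein *Pglyrp1* 49 and 27 against 47 and 50 (1.10) and the small heat shock protein *Hspb1* 72 and 32 against 51 and 65 (0.93). *Pglyrp1*, *Hspb1* and *Ifi27* were more abundant in endothelial than in mural nuclei, and the 12 endothelial genes summed to 5092, 4606, 6350 and 6053 CPM in mural nuclei by library. With endothelial UMIs under 0.5 times mural UMIs, *Ifi27* stood at 0.70, *Ifitm1* at 1.58, *Hspb1* at 1.005, *Pglyrp1* at 1.001 and *Cox4i2* at 2.11, so that the fold of *Ifi27* fell and those of the other 4 were near or above their values in all members. Of these 5 genes *Cox4i2* passed the threshold in that smaller set of nuclei. With free RNA subtracted none of the 5 passed it, at 1.33 for *Cox4i2*, 0.98 for *Ifitm1*, 1.13 for *Ifi27*, 0.79 for *Pglyrp1* and 0.62 for *Hspb1*. That subtraction was scaled on the neuronal UMIs of the summed nuclei, which were uneven among members, as given above. The other 7 of the 12 named by the rule were *Kcnh5*, *Fam162a*, *Cox7a2l*, *Pop5*, *Psmd2*, *Cops4* and *Mrc2*, with log2 fold changes from 1.43 to 2.01. With endothelial UMIs under 0.5 times mural UMIs, *Psmd2* fell to 0.80. *Kcnh5*, *Fam162a*, *Cox7a2l*, *Pop5* and *Cops4* stood at 2.29, 1.89, 3.23, 1.69 and 2.79 there. For all 12 named genes the HET libraries lay above the WT libraries relative to depth, as the rule for naming required and as 19.8% of all genes tested did. *Kcnh5*, a neuronal potassium channel, rested on 2 nuclei in HET replicate 1, of which a single nucleus held 12 of 20 UMIs.

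**Figure D4:**
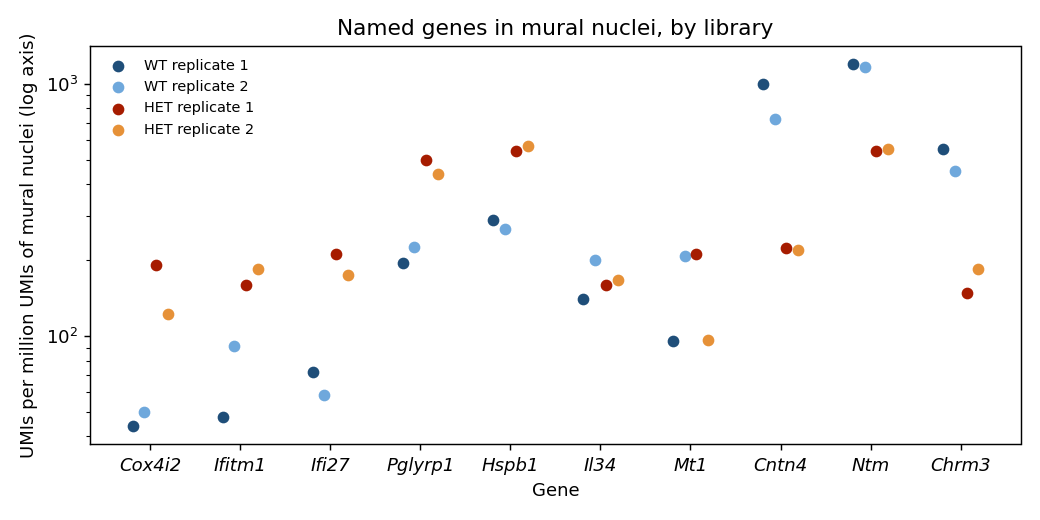
Levels in CPM of the summed mural nuclei (log axis) in each library for 5 named genes higher and 3 lower in HET at an unadjusted p under 0.01, and for *Il34* and *Mt1*, which did not pass it. *Cox4i2* stands at 44.0 and 50.0 in WT and 191 and 123 in HET, *Cntn4* is lower in both HET libraries, and the 2 genotypes overlap for *Il34* and *Mt1*.

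By gene list, no pericyte marker passed the threshold. All 12 further pericyte markers had a log2 fold change above 0, as 50.6% of genes tested did, with a median of 0.44 against 0.01 over all genes tested and a range from 0.02 (*Slc6a20a*) to 0.93 (*Anpep*), and 6 of the 12 did not overlap between the genotypes with HET higher, on levels scaled by TMM (edgeR's correction for library composition), against 19.8% of genes tested. The 12 endothelial genes had a median of 0.36 (10 of 12 above 0, 6 not overlapping with HET higher), and the 10 neuronal genes the opposite sign (median -0.54, 0 of 10 above 0, 7 not overlapping with HET lower, against 18.8% of genes tested). Without WT2 the endothelial median was 0.23, and the neuronal median was -0.36 without HET2. With free RNA subtracted, the medians were 0.16 for the pericyte markers and 0.05 for the endothelial genes. *Anpep*, at the top of the pericyte range, rested on 17 UMIs in all. It passed the detection filter of 10% of nuclei only through HET, where it was higher, so its sign adds nothing to the count of 12.

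**Figure D5:**
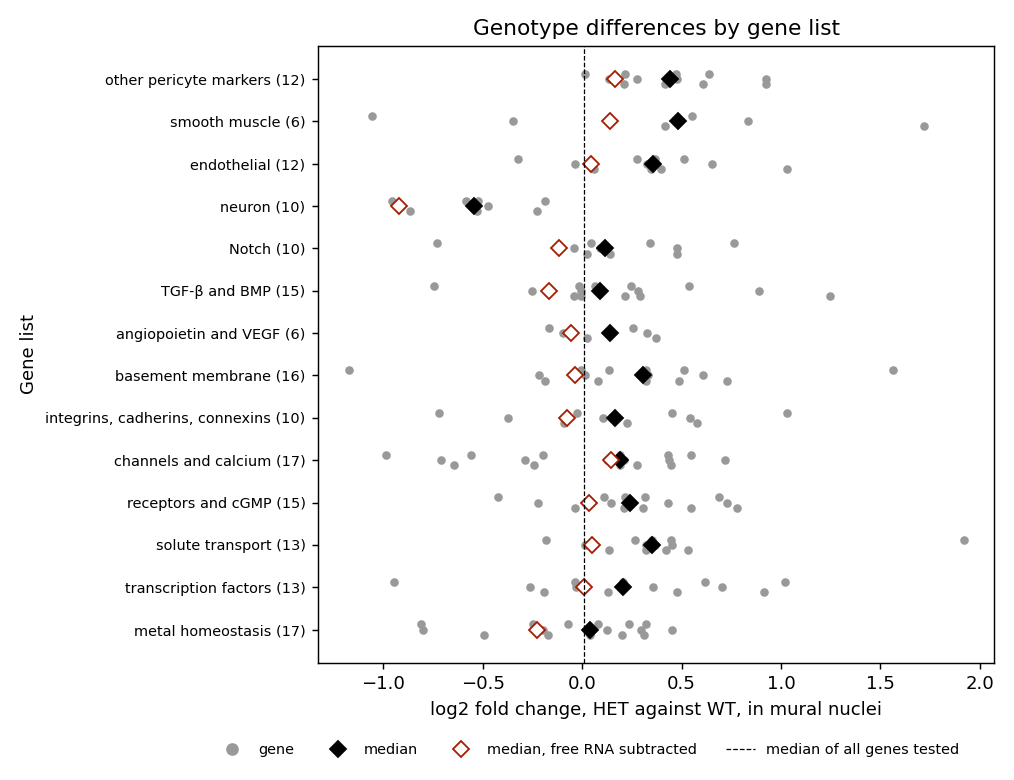
Log2 fold change of HET against WT in mural nuclei for each tested gene (grey points) of 14 lists, with the number of genes tested in parentheses, the list median (black diamonds) and the median with free RNA subtracted (open diamonds). The pericyte, endothelial and neuronal medians are 0.44, 0.36 and -0.54, and 0.16, 0.05 and -0.92 after subtraction, which was estimated from the neuronal genes, so that their subtracted median is no separate result.

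In the functional lists, 1 gene passed the threshold, which 1.03% of all genes tested passed. *Slc8a1*, a sodium and calcium exchanger that neurons also express, had 129 and 51 UMIs in WT and 24 and 28 in HET, a log2 fold change of -0.99 (SE 0.31, with an adjusted p of 0.797 by edgeR). The medians were 0.12 for 10 Notch genes, 0.09 for 15 TGF-β and BMP genes, 0.14 for 6 angiopoietin and VEGF genes, 0.31 for 16 basement membrane genes, 0.17 for 10 adhesion genes, 0.19 for 17 channel and calcium genes and 0.24 for 15 receptor and cyclic GMP genes. They were 0.35 for 13 solute transporters, 0.20 for 13 transcription factors, 0.04 for 3 PDGF genes and -0.06 for 5 genes of familial brain calcification. These medians moved with single libraries. Without WT1 the median was 0.17 for basement membrane, 0.03 for adhesion, 0.04 for channel and calcium genes, -0.02 for transcription factors, -0.11 for PDGF genes, 0.14 for the calcification genes, 0.23 for TGF-β and BMP genes and 0.30 for angiopoietin and VEGF genes. Without WT2 it was 0.29 for Notch genes, 0.01 for channel and calcium genes, 0.46 for transcription factors, -0.28 for PDGF genes and -0.31 for the calcification genes. Without HET1 it was 0.50 for adhesion, 0.28 for TGF-β and BMP genes, -0.40 for the calcification genes and 0.16 for basement membrane, and without HET2 -0.12 for channel and calcium genes, 0.07 for adhesion, -0.18 for PDGF genes and 0.21 for solute transporters. With free RNA subtracted the basement membrane, adhesion, Notch, TGF-β and BMP, angiopoietin and VEGF, and PDGF medians were below 0, at -0.03, -0.08, -0.12, -0.17, -0.06 and -0.29. No direction is therefore given for these lists. Among the genes nearest the threshold on the mural side, *Zic1* had a log2 fold change of 0.92 and *Art3*, a surface ADP-ribosyltransferase, of 0.92 (both with an adjusted p of 0.797 by edgeR). The 6 smooth muscle genes tested had a median of 0.48 (0.04 without WT1, 0.83 without WT2 and 0.14 with free RNA subtracted), and the 2 fibroblast genes one of -0.02. *Myh11*, among the 6, passed the detection filter of 10% of nuclei only through HET, where it was higher, so no direction is given for that list. Of the marker lists of other cells, *Tnr* of oligodendrocyte precursors (98 and 34 against 13 and 16 UMIs, log2 fold change -1.37) passed the threshold.

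Metal-handling genes, the group that the study follows in other cells, gave no call in mural nuclei. Of the 17 tested, 10 had a fold change above 0 and 7 below, with a median of 0.04 (-0.15 to 0.07 when a library was left out, lowest without WT1, and -0.23 with free RNA subtracted). *Mt1* had 24 and 25 UMIs in WT and 20 and 11 in HET, at a log2 fold change of 0.04 with an SE of 0.49, and *Mt2* and *Mt3* stood at -0.17 (SE 0.61) and -0.25 (SE 0.52). *Slc30a10* stood at 0.32 and *Cp* at 0.08. *Il34* had 35 and 24 UMIs in WT and 15 and 19 in HET, at -0.07 (SE 0.35, adjusted p = 0.979 by edgeR). At these standard errors a difference of 2-fold in the metallothioneins could have been missed with these libraries.

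Mural and endothelial nuclei were then compared in the same libraries, to ask whether the genotype difference itself differed between them. Of 6980 genes, 0 (0.0%) had an adjusted p under 0.05 for the class by genotype term in edgeR's quasi-likelihood test, 327 had an unadjusted p under 0.05, and 68 (0.974%) one under 0.01. The 5 smallest p-values belonged to *Grik1*, *Kirrel3*, *Epha3*, *Nxph1* and *Pcdh17*, all known from neurons. *Grik1*, a kainate receptor, had 17, 15, 52 and 4 UMIs in mural nuclei by library, of which a single HET replicate 1 nucleus held 37, and 144, 72, 5 and 10 UMIs in endothelial nuclei (difference 4.35 on the log2 scale, adjusted p = 0.403 by edgeR).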

How the data were processed

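Nuclei were isolated without detergent from whole brains, depleted of myelin and sequenced as Chromium 3′ v3.1 libraries. The deposited matrices hold raw UMI counts for each gene and barcode, which the authors made with Cell Ranger 5.0.0 on mm10, before any normalization. The study's filter was applied: at least 500 and at most 50000 UMIs, over 200 genes, and a mitochondrial share below 5%. The members and the 25 gene lists (295 genes) were chosen with earlier results of these data known. UMIs were summed per library and tested with edgeR 4.0.16 (R 4.3.3, TMM scaling, quasi-likelihood test, two-sided, Benjamini-Hochberg adjustment). Genes needed a UMI in 10% of nuclei of either genotype and 10 counts in all. The class by genotype term came from a model with a term for each library, for class and for the product of class and genotype. DESeq2 1.42.0 served as an alternative. Doublet scores were computed with Scrublet in scanpy 1.11.5 at 0.8% per 1000 nuclei.

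Named genes were, by genotype, up to 12 in each direction with the smallest p under 0.01, at least 20 UMIs and no overlap between groups, against all other nuclei the 25 and against endothelial nuclei the 10 with the largest ratio (at least 2-fold in every library, in at least 10% of mural nuclei and with 20 UMIs), and 5 for the class by genotype term. Some list members were named after their values were seen. A few genes that the rule or the lists would name are not reported here. Of the 4 libraries, pairs shared 33 to 68 barcodes (0.344 to 0.465% of the smaller), and replicates were not duplicates (chi-square per degree of freedom 2.14 in WT and 2.28 in HET mural sums). Whether they are separate mice rests on the labels, and p-values measure only the spread between these samples. The genotype test was tested on simulated data. Alternatives were other selections of nuclei, other tests and scalings, a replicate block, subtraction of free RNA estimated from neuronal genes (53.4%, 49.4%, 37.9% and 37.9% of mural UMIs by library) and leaving out each library. The free RNA estimate used the mural sum of each library, where few nuclei could hold much of the neuronal RNA. In HET replicate 1, single nuclei held 638 and 364 of 1113 neuronal UMIs. The estimate is therefore no measure of the free RNA in each nucleus, and values after subtraction depend on it.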

Additional observations from a re-analysis of the deposited data

How the results depend on the processing

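With 148 nuclei and 2 libraries per genotype, depth and replicate number limit what the genotype comparisons can show of differences near 2-fold, and the counts of genes moved with the libraries, the test and the nuclei used. Genes with an unadjusted p under 0.01 (72) numbered 1 to 93 when a library was left out, with 93 without WT replicate 1, 11 without WT replicate 2, 1 without HET replicate 1 and 4 without HET replicate 2. They numbered 140 without nuclei of high Scrublet score, 109 without the mitochondrial limit, 155 with edgeR's likelihood-ratio test, the study's own, 16 with DESeq2 and 32 with free RNA subtracted. Genes with an adjusted p under 0.05 (0) numbered 10 without high Scrublet scores, 9 with the likelihood-ratio test, 1 with DESeq2, 1 with endothelial UMIs under 0.5 times mural UMIs and 0 to 3 when a library was left out. For the class by genotype term (0) they numbered 2 without high Scrublet scores, 3 where neuronal UMIs did not exceed mural UMIs, 7 with the likelihood-ratio test and 0 to 22 when a library was left out, with 22 without HET replicate 2. A library left alone in its genotype was assumed to vary like the others. The cause of these shifts was not tested. The difference in the share of mural nuclei (-0.0478 percentage points) ran from -0.138 to 0.0427 when a library was left out, with the sign turned without WT replicate 1, and per 100 endothelial nuclei the difference was 2.69 (-1.92 without WT replicate 1, -1.80 without HET replicate 2, 7.30 without WT replicate 2 and 7.17 without HET replicate 1). The 24 named genotype genes kept their direction in all 401 values under other settings, which the naming rule fixes where a library is left out, and p was under 0.01 in 243. The genes 4-fold higher than in all other nuclei (854) numbered 813 to 969 under other selections. Same-numbered replicates did not deviate together (r = 0.0217 over 7019 genes, with 2 pairs, so the number does not pair the samples), and a replicate block gave 38 genes under 0.01 and 0 with an adjusted p under 0.05. The setting without the mitochondrial limit and the one with the endothelial limit were added after the data were seen.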
